A study of Mus musculus with 2 samples.

Results

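Transcription factors that help to set the subtypes of olfactory bulb interneurons were examined in the neuroblasts of a mouse brain sort. The 9 genes were Pbx3, Foxp1, Foxp2, Meis1, Meis2, Tshz1, Etv1, Nr2f1 and Nr2f2, of 23906 genes with counts in the brain library. They were listed by name, and chosen on measured values of this library, to ask whether factors of different subtypes are found in the same neuroblasts or in different ones. Neuroblasts were the cells with at least 2 unique molecular identifiers (UMIs) of Dcx, which encodes the microtubule protein doublecortin of migrating young neurons. Of 4151 brain cells that passed the filter, 1797 met this limit, and 35 of them were left out because their clusters carried the markers of another cell class (17 of them in clusters of oligodendrocyte precursors). This left 1762 neuroblasts and 438 precursors. Since genes and cells were chosen on measured values, levels are given as a description with no test.

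The cells were sorted for green fluorescent protein from the whole brain or the lung of Nestin-GFP transgenic mice of about 6 weeks, in which regulatory elements of the neural stem cell gene Nestin drive GFP. C57BL/6 stands in the labels as the strain, whereas the methods name CD1 and mixed CD1/C3H animals as the wild-type stock used for breeding. Each tissue gave 1 droplet library (10x Genomics, 3′ chemistry), and the number of animals in each is not given in the sources used here. With 1 library per tissue and no replicates, intervals below are exact 95% intervals that cover counting error only, and no p-value could be had. Of the cell barcodes, 15 were present in both tables, and 11 of these passed the filter in both.

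Neuroblasts that arise from adult stem cells of the subventricular zone migrate along the rostral migratory stream to the olfactory bulb. There they become granule and periglomerular interneurons, and combinations of transcription factors laid down in the stem cells and the neuroblasts set which subtype forms. The paper also names the subgranular zone of the dentate gyrus as a region of adult neural stem cells. Since the whole brain was sorted, the neuroblasts here need not all be of the olfactory lineage. Meis1, Meis2 and Pbx3 encode homeodomain proteins of the TALE family that bind DNA as partners of one another. Foxp1 and Foxp2 encode forkhead repressors, Etv1 (also named Er81) an ETS family factor of dopaminergic and other bulb interneurons, and Tshz1 a zinc finger protein needed for bulb interneurons to migrate to their final layer. Nr2f1 and Nr2f2 encode the orphan nuclear receptors COUP-TFI and COUP-TFII. In build mm10, Pbx3 and Meis2 lie on chromosome 2 (Meis2 at bases 115863064 to 116065839), Foxp1 and Foxp2 on chromosome 6 (98925338 to 99522721 and 14901349 to 15441977), Meis1 on chromosome 11 (18879817 to 19018985), Etv1 on chromosome 12 (38779380 to 38870484), Nr2f1 on chromosome 13 (78188973 to 78199757) and Nr2f2 on chromosome 7 (70351944 to 70366735).

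Levels of listed markers describe the neuroblasts. The 9 listed neuroblast markers summed to 11518 CPM (the UMIs of a gene in a class of cells, scaled to counts-per-million of all UMIs of the class) in neuroblasts and to 93.1 CPM in quiescent neural stem cell-like (qNSC-like) cells. All 9 were detected. Dcx, by which the cells were chosen, is 1 of the 9 (973 CPM in neuroblasts). The same marker lists named the clusters that were left out and the qNSC-like cluster, so these sums do not test the label. Listed qNSC markers summed to 502 CPM in neuroblasts (8454 in qNSC-like cells), activated stem cell markers to 259 CPM, mature neuron markers to 227 CPM, oligodendrocyte markers to 334 CPM and mural cell markers to 24.0 CPM. Of the 1762 cells, 1504 lay in clusters named after neuroblasts, 239 in unnamed clusters and 19 in astrocyte-like or qNSC-like clusters. The clusters named after neuroblasts include cluster 0, which had no neuroblast marker among its 10 leading genes and was led by Pbx3. Cluster 0 and the clusters that hold most dividing cells rested on the summed marker score alone.

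To compare shares of cells, each cell was thinned at random to 2000 UMIs, which kept 1701 neuroblasts. Meis2 was found in 89.2% of them (interval 87.6 to 90.6%), Etv1 in 40.9% (38.5 to 43.2%), Tshz1 in 35.0% (32.7 to 37.3%) and Pbx3 in 33.4% (31.2 to 35.7%). Nr2f1 was found in 23.9% (21.9 to 26.0%), Foxp2 in 16.2% (14.5 to 18%), Foxp1 in 13.3% (11.7 to 15.0%), Meis1 in 11.1% (9.60 to 12.6%) and Nr2f2 in 6.11% (5.02 to 7.36%). Meis2 was thus found in most neuroblasts at this depth and each of the other 8 genes in a minority. These shares depend on how many UMIs are read and on how well the 3′ end of each transcript is captured, so they order the genes by detection and not by transcript number. Among neighbours in this order, the intervals of Tshz1 and Pbx3, of Foxp2 and Foxp1, and of Foxp1 and Meis1 overlapped. Without thinning, with a median of 4705 UMIs per neuroblast, the shares ran from 9.82% for Nr2f2 to 96.4% for Meis2, with 60.7% for Etv1, 55.8% for Tshz1, 44.2% for Pbx3 and 25.5% for Foxp2, so that Etv1 and Tshz1 too were found in a majority.

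Free RNA in droplets gives UMIs in cells that do not make a transcript, so mature oligodendrocyte-like (mOL-like) cells were used for comparison. Of these 170 cells, 139 lay in a cluster with no listed oligodendrocyte marker among its 10 leading genes. The class had a median of 2112 UMIs, and 94 cells reached 2000. They held Meis2 in 18.1% of cells (10.9 to 27.4%), Etv1 in 17.0% (10.1 to 26.2%), Pbx3 in 5.32% and Foxp2 in 2.13%. Etv1 was in 2.35% of endothelial-like, 4.49% of astrocyte-like and 7.61% of OPC-like cells. Meis2 was in 7.45% of endothelial-like and 34.8% of astrocyte-like cells. The mOL-like shares of these 2 genes are thus not a background common to all classes, and whether mOL-like cells make them was not tested. The neuroblast intervals of Pbx3, Foxp2, Meis2, Tshz1, Etv1 and Nr2f1 lay above those of the mOL-like cells. Those of Foxp1 (8.51% in mOL-like cells, 3.75 to 16.1%), Meis1 (7.45%, 3.05 to 14.7%) and Nr2f2 (3.19%, 0.664 to 9.04%) overlapped them. The shares of these 3 genes in neuroblasts were thus not separated from those of the 94 mOL-like cells. Other classes gave lower shares of Meis1, with intervals below that of neuroblasts in endothelial-like (1.57%, 0.429 to 3.97%), OPC-like (oligodendrocyte precursor-like, 3.26%, 1.21 to 6.96%) and astrocyte-like cells (4.02%, 2.36 to 6.36%). Foxp1 likewise was lower in OPC-like (5.98%, 3.02 to 10.4%) and astrocyte-like cells (7.57%, 5.23 to 10.5%), whereas Nr2f2 overlapped both.

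The genes were next followed along the lineage. The qNSC-like cells (217) were Thbs4 and Gfap-rich cells of 1 cluster that were not dividing. An unnamed cluster led by Mcm3 and Mcm2 was not named after activated stem cells by the marker score, and its 31 non-dividing cells stand between stem cells and dividing cells here. Dividing cells were those with UMIs of at least 3 listed cell cycle genes, and 190 of them with fewer than 2 Dcx UMIs, outside oligodendrocyte, vascular, ependymal and immune clusters, were the cycling precursors. Among neuroblasts, 411 were dividing. The remaining 1351 were split at the median of Meg3, a long noncoding RNA abundant in neurons, into 676 Meg3-low and 675 Meg3-high cells, and 177 cells lay within 1.25-fold of the cut of 22.6 Meg3 UMIs per 10000. The Meg3 split is a range and not a cell type.

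Pbx3 and Foxp2 showed the largest differences along this order among the 9 genes. Pbx3 was at 18.2 CPM in qNSC-like cells, 24.9 in the Mcm3 and Mcm2 cluster, 51.7 in cycling precursors, 87.1 in cycling neuroblasts, 212 in Meg3-low neuroblasts and 821 in Meg3-high neuroblasts. Foxp2 was at 7.95, 15.0, 20.2, 39.0, 54.1 and 257 CPM in the same classes. For both genes the largest step in fold between neighbours lay between the Meg3-low and Meg3-high neuroblasts. The share of thinned cells with a Pbx3 UMI was 1.54% in qNSC-like cells, 12.2% in cycling neuroblasts, 23.0% in Meg3-low and 58.0% in Meg3-high neuroblasts. That of Foxp2 was 2.05% in qNSC-like cells, 8.32% in Meg3-low and 30.3% in Meg3-high neuroblasts. Tshz1 had a like order with a smaller span, from 47.7 CPM in qNSC-like cells through 96.0 in cycling precursors and 181 in Meg3-low neuroblasts to 498 in Meg3-high neuroblasts.

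Etv1 differed from these 3 genes in where its main step lay. It was at 23.8 CPM in qNSC-like cells, 78.0 in cycling precursors, 232 in cycling neuroblasts, 246 in Meg3-low and 410 in Meg3-high neuroblasts. Dividing neuroblasts thus already held most of the Etv1 level of later cells. Meis2 was present at every stage, at 292 CPM in qNSC-like cells, 538 in cycling precursors, 1067 in cycling neuroblasts, 1940 in Meg3-low and 3028 in Meg3-high neuroblasts. Meis1 followed at low levels, from 11.4 CPM in qNSC-like cells to 89.5 CPM in Meg3-high neuroblasts.

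The 3 other genes had no such order. Foxp1 was at 52.2 CPM in qNSC-like cells, 109.8 in the Mcm3 and Mcm2 cluster (68.8 to 166), 66.7 in cycling precursors and between 77.2 and 80.7 CPM in the 3 neuroblast classes. Nr2f1 was at 181 CPM in qNSC-like cells, 182 in cycling precursors, 187 in cycling neuroblasts, 197 in Meg3-low and 127 in Meg3-high neuroblasts. Nr2f2 was at 56.8, 27.0, 36.2, 60.4 and 38.6 CPM in these classes. Both nuclear receptor genes were thus as high in stem cells as in most neuroblasts, and lower in Meg3-high than in Meg3-low neuroblasts.

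**Figure D1:**
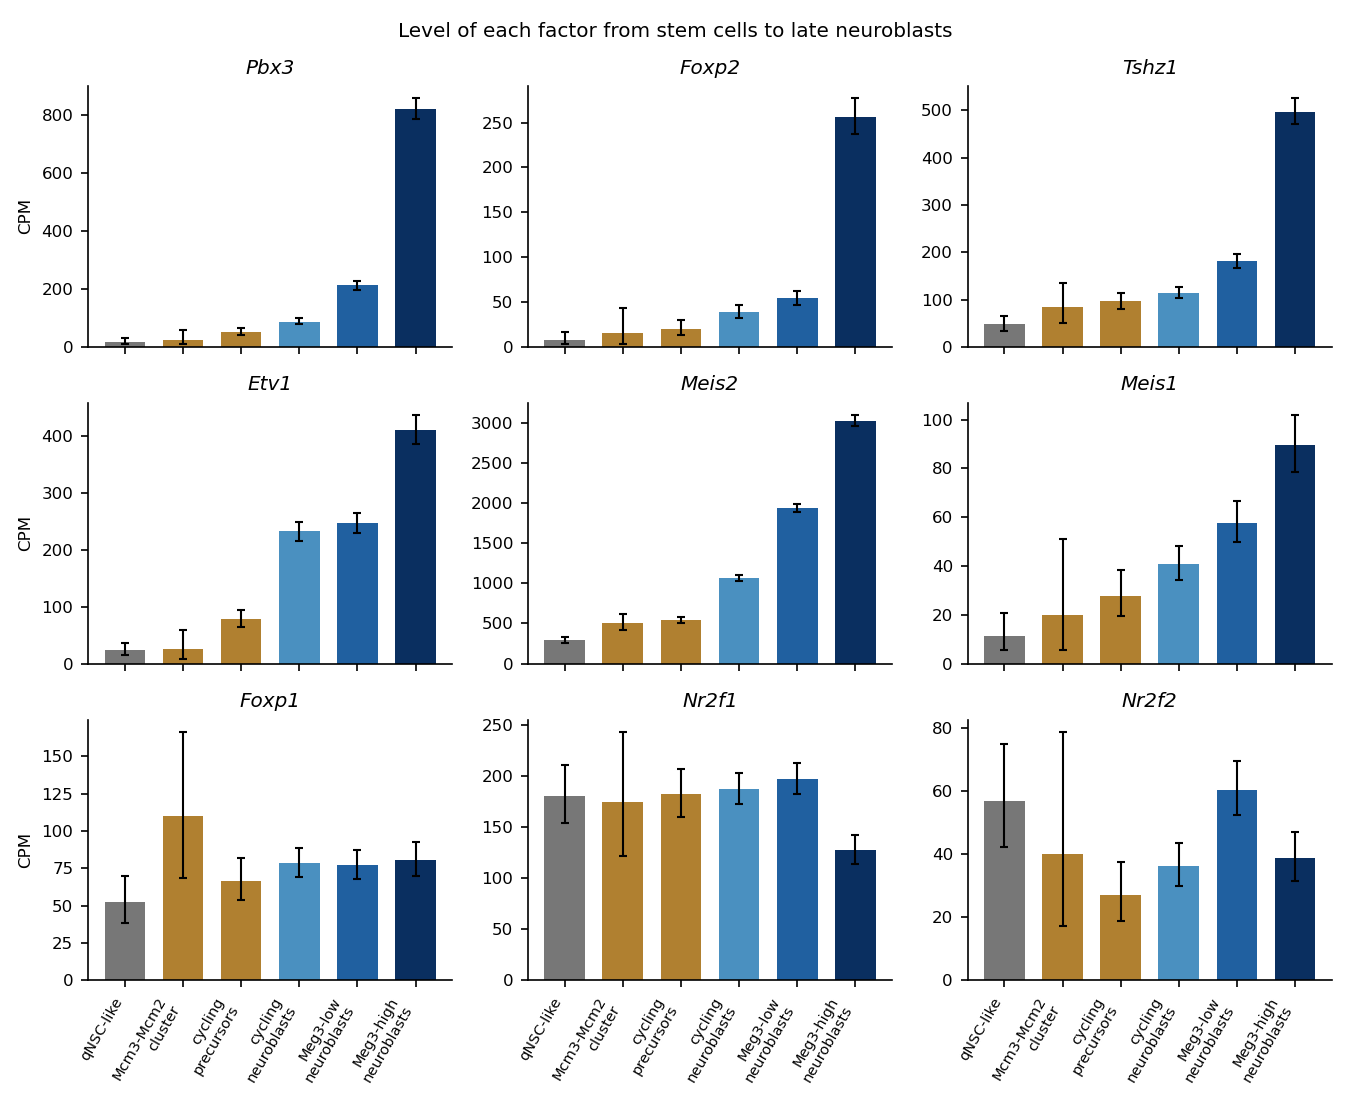
Level of each of the 9 genes (bars, CPM on a linear axis from 0, scaled for each gene) in 6 classes of the lineage from qNSC-like cells to Meg3-high neuroblasts, with exact 95% counting intervals as error bars. Pbx3 runs from 18.2 to 821 CPM and Foxp2 from 7.95 to 257 CPM, while Nr2f1 lies between 127 and 197 CPM in all 6 classes.

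Set side by side, the 1351 non-cycling neuroblasts held 26.3-fold more Pbx3 than qNSC-like cells (16.2 to 46.1), 17.9-fold more Foxp2 (8.67 to 44.8), 13.3-fold more Etv1 (8.69 to 21.6), 8.28-fold more Meis2 (7.32 to 9.40), 6.69-fold more Tshz1 (4.93 to 9.31) and 6.31-fold more Meis1 (3.40 to 13.3). The ratio was 1.51 for Foxp1 (1.11 to 2.09), 0.92 for Nr2f1 (0.78 to 1.10) and 0.90 for Nr2f2 (0.66 to 1.23). A ratio of at least 2 in either direction was taken as a difference, and by this rule 6 of 9 genes were higher and 0 lower. Of all 10506 genes compared, 20.8% were higher and 26.3% lower, and the median ratio was 6.69 over the 9 genes and 1.06 over all genes. Of 37 other listed factors compared, 22 were higher and 8 lower, and of 11 listed products 10 were higher and 1 lower. Mural cell markers summed to 805 CPM in qNSC-like cells and to 24.0 CPM in neuroblasts, and their part in the ratios of Nr2f1, Nr2f2 and Foxp1 was not tested.

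Between Meg3-high and Meg3-low neuroblasts, Foxp2 was 4.74-fold higher (4.02 to 5.62), Pbx3 3.87-fold (3.55 to 4.22) and Tshz1 2.75-fold (2.50 to 3.04). Below 2-fold were Etv1 at 1.67, Meis2 at 1.56, Meis1 at 1.55, Foxp1 at 1.05, Nr2f1 at 0.65 (0.57 to 0.74) and Nr2f2 at 0.64 (0.50 to 0.82). Thus 3 of 9 genes were higher and 0 lower, beside 1.78% and 3.29% of 8941 genes. The median ratio was 1.56 over the 9 genes and 0.99 over all. Among 35 other listed factors of bulb interneurons and their lineage, 3 were higher, namely Foxp4 (2.39-fold), Tshz2 (2.31-fold) and Tshz3 (2.15-fold), all paralogs of the genes above, and 9 were lower. Of 11 listed products of bulb interneurons, Prokr2, the prokineticin receptor that guides neuroblasts into the bulb, was 9.58-fold higher, and 5 were lower, namely Calb2 at 0.34, Pcp4 at 0.14, the glutamate transporter gene Slc17a6 at 0.04, Sema3c at 0.03 and the neuropeptide gene Npy at 0.02 (1 UMI against 55). The Meg3-low cells include all 58 cells of a cluster led by Neurod1 and Eomes. Without it 3 of 28 factors were higher and 1 lower (Foxp4 then at 5.22, 2.68 to 11.1), and 1 of 8 products was higher and 1 lower, beside 1.97% and 2.41% of 8865 genes. The product still lower was Npy, at 0.02 (0.00052 to 0.12), Calb2 then stood at 1.05, and Pcp4, Slc17a6 and Sema3c were under 10 CPM in both ranges. The same 3 of the 9 genes were higher without it, with Foxp2 at 4.52, Pbx3 at 3.56 and Tshz1 at 2.58. Median depth also differed, at 3764 UMIs in Meg3-high and 4788 in Meg3-low cells, and the nuclear RNA Malat1 was 1.43-fold higher in Meg3-high cells. The part of depth and of nuclear RNA in these ratios was not tested.

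Dividing cells were compared in the same way. Etv1 was 2.97-fold higher in cycling neuroblasts than in cycling precursors (2.42 to 3.69), and it was 1 of 9 genes past 2-fold, with 0 lower. Meis2 reached 1.98-fold, Foxp2 1.92-fold, Pbx3 1.68-fold and Meis1 1.47-fold. Of 9198 genes, 4.15% were higher and 6.68% lower. Within dividing cells, then, Etv1 was the member whose level differed most across the Dcx limit. The Dcx limit itself was also examined: among cells with 1 Dcx UMI, just outside the neuroblasts, 22.5% of 173 thinned cells held Etv1, against 38.4% of 237 cells with 2 Dcx UMIs. The corresponding shares were 75.7% and 84.8% for Meis2, 24.9% and 32.1% for Tshz1, 22.0% and 27.0% for Pbx3, 11% and 16.9% for Foxp2, 27.2% and 27.0% for Nr2f1, 16.2% and 12.7% for Foxp1, 8.09% and 10.5% for Meis1, and 4.05% and 5.06% for Nr2f2.

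A small unnamed cluster, whose brain region was not tested, stood apart from the other neuroblasts. It held 58 non-cycling neuroblasts and was led by Neurod1, Eomes, Pcp4, Calb2 and Tbr1, genes that are known from glutamatergic neurons and their precursors (Calb2 also from bulb interneurons). Nr2f1 was at 476 CPM there, 3.26-fold higher than in the other non-cycling neuroblasts (2.75 to 3.84), and Nr2f2 at 108 CPM, 2.30-fold higher (1.6 to 3.21). Etv1 was at 27.0 CPM (ratio 0.08), Pbx3 at 64.9 CPM (0.13), Meis1 at 10.8 CPM (0.14), Foxp2 at 32.4 CPM (0.22), Tshz1 at 81.1 CPM (0.24) and Meis2 at 819 CPM (0.32). Foxp1, at 51.4 CPM and a ratio of 0.64, lay between the limits. So 2 of 9 genes were higher and 6 lower, beside 13.7% and 8.99% of 9551 genes. Nr2f1 was found in 55.2% of the thinned cells of this cluster and Meis2 in 44.8%. All of its cells were Meg3-low (its Meg3 ratio was 0.02), and without it the Meg3-high to Meg3-low ratio of Nr2f1 was 0.79, that of Etv1 1.5 and that of Meis2 1.46.

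The 9 genes were also read in the other classes of the brain sort. Neuroblasts held 47.2% of the UMIs of all genes in the brain cells, and against this 83.5% of those of Pbx3, 83.5% of those of Foxp2, 83.3% of Meis2, 81.5% of Etv1, 75.0% of Meis1 and 72.2% of Tshz1. Their share of Nr2f1, at 50.6%, was close to that of all UMIs, and they held 32.8% of Foxp1 and 26.1% of Nr2f2. The 3 genes whose levels were alike in stem cells and neuroblasts were therefore also those most found elsewhere. Nr2f2 reached 1029 CPM in mural-like cells (939 to 1125) and 706 CPM in fibroblast-like cells, Foxp1 551 CPM in endothelial-like cells (511 to 594), and Nr2f1 291 CPM in fibroblast-like, 270 CPM in mural-like and 221 CPM in astrocyte-like cells. In mural-like cells 87.8% of thinned cells held Nr2f2 (80.9 to 92.9%). In microglia-like cells Foxp2, Nr2f1 and Nr2f2 were found in 0 of 34 cells, which at 3 counts allows up to 8.82% of cells with a UMI at this depth.

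**Figure D2:**
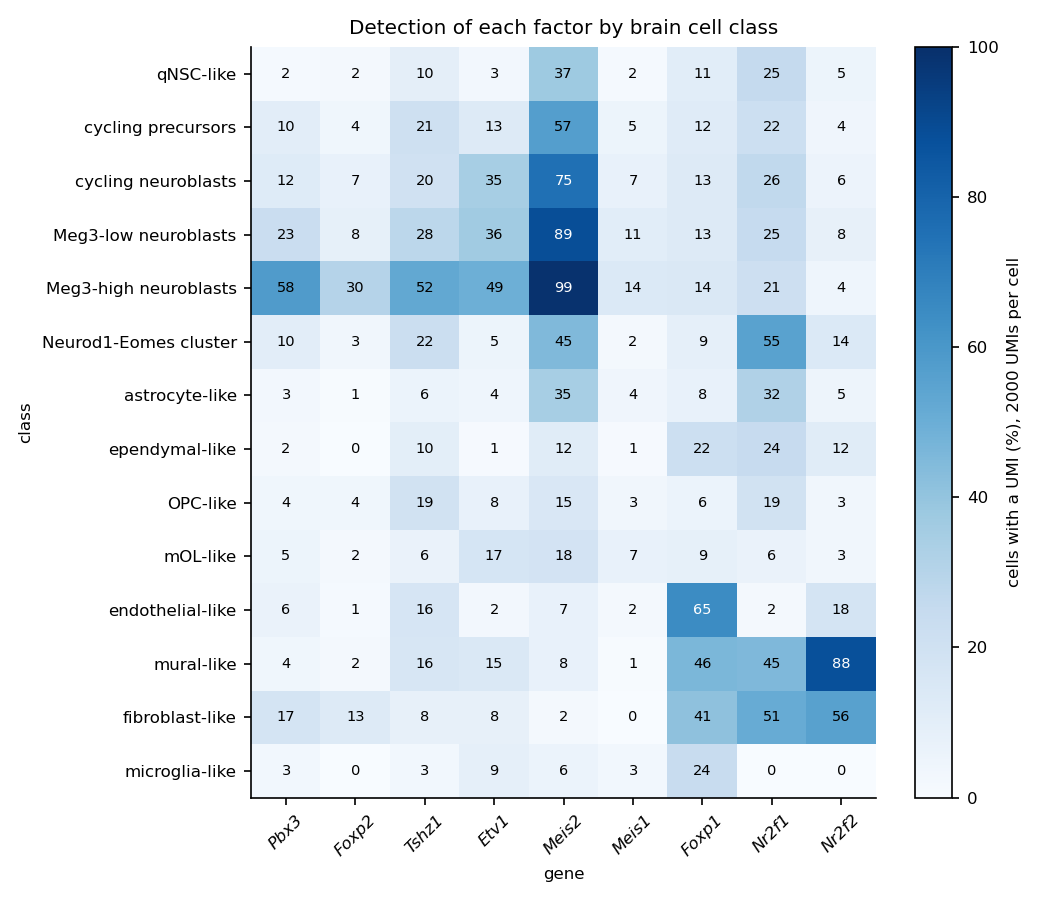
Share of cells (percent) with at least 1 UMI of each gene after thinning to 2000 UMIs, in neuroblasts, their precursors and the other classes of the brain sort. Meis2 reaches 98.9% of Meg3-high neuroblasts, and Nr2f2 reaches 87.8% of mural-like cells but 6.11% of neuroblasts.

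In the lung library, where Dcx was at 1.45 CPM against 481 CPM in brain, Meis2 was at 64.2 CPM against 1097, Pbx3 at 32.8 against 192, Foxp2 at 23.2 against 59.7, Etv1 at 71.6 against 166 and Tshz1 at 79.8 against 161. Nr2f2 was at 818 CPM in lung and 82.7 in brain, Foxp1 at 308 and 113, Meis1 at 123 and 38.2, and Nr2f1 at 162 in both. The 5 genes lower in the lung had between 72.2% and 83.5% of their brain UMIs in neuroblasts, and Meis1 was higher in the lung although neuroblasts held 75.0% of its brain UMIs. Tissue and library cannot be told apart in these values.

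Whether the factors were found in the same neuroblasts was measured by co-detection. For each pair the number of thinned neuroblasts with both genes was divided by the number given by the product of their shares. A pair was called together at 1.5 or more and apart at 0.67 or less, and was used where the product gave at least 10 cells. All 36 pairs could be used. Together were 4 pairs and apart 3, while over 68542 pairs of a member with any other gene 1.06% were together and 3.82% apart.

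The pairs found together fell into 2 sets that shared no gene. In the first set, Pbx3 and Foxp2 were found together in 193 cells against 91.8 by the product, a ratio of 2.10 (1.83 to 2.40), and Foxp2 was found in 34% of cells with Pbx3 and 7.24% of cells without it. Pbx3 and Tshz1 were together in 319 cells against 199, a ratio of 1.61 (1.45 to 1.77), and Tshz1 was in 56.2% of cells with Pbx3 and 24.4% of those without. Foxp2 and Tshz1 were together in 159 cells against 96.2, a ratio of 1.65 (1.42 to 1.92). The second set was Nr2f1 and Nr2f2, which were together in 54 cells against 24.9, a ratio of 2.17 (1.64 to 2.82), so that Nr2f2 was in 13.3% of cells with Nr2f1 and 3.86% of cells without it. The Nr2f1 and Nr2f2 ratio was 2.19 without the Neurod1 and Eomes cluster. The share of Nr2f2 in neuroblasts overlapped that of mOL-like cells, and the part of free RNA in its pairs was not tested. When cells were thinned to 3000 UMIs or not thinned, Pbx3 with Tshz1 (1.499 and 1.27) and Foxp2 with Tshz1 (1.44 and 1.28) lay under the limit, whereas Pbx3 with Foxp2 (2.02 and 1.69) and Nr2f1 with Nr2f2 (1.84 and 1.71) stayed above it.

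The 3 pairs found apart all contained Nr2f2. Etv1 and Nr2f2 were together in 23 cells against 42.5, a ratio of 0.54 (0.34 to 0.81), with Nr2f2 in 3.31% of cells with Etv1 and 8.05% of cells without. Foxp1 and Nr2f2 (0.43, 0.16 to 0.94) and Meis1 and Nr2f2 (0.52, 0.19 to 1.13) each rested on 6 cells, against 13.8 and 11.5 by the product. The first of these was 0.781 in another random thinning and 0.967 without thinning, so it was not a stable call. Short of the limit, Pbx3 and Nr2f1 had a ratio of 0.72 (0.59 to 0.87) and Etv1 and Nr2f1 of 0.76 (0.64 to 0.90). Pbx3 and Etv1 were together somewhat more often than the product, at 1.28 (1.15 to 1.42). Ratios with Meis2 lay near 1, which its share of 89.2% fixes from above.

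**Figure D3:**
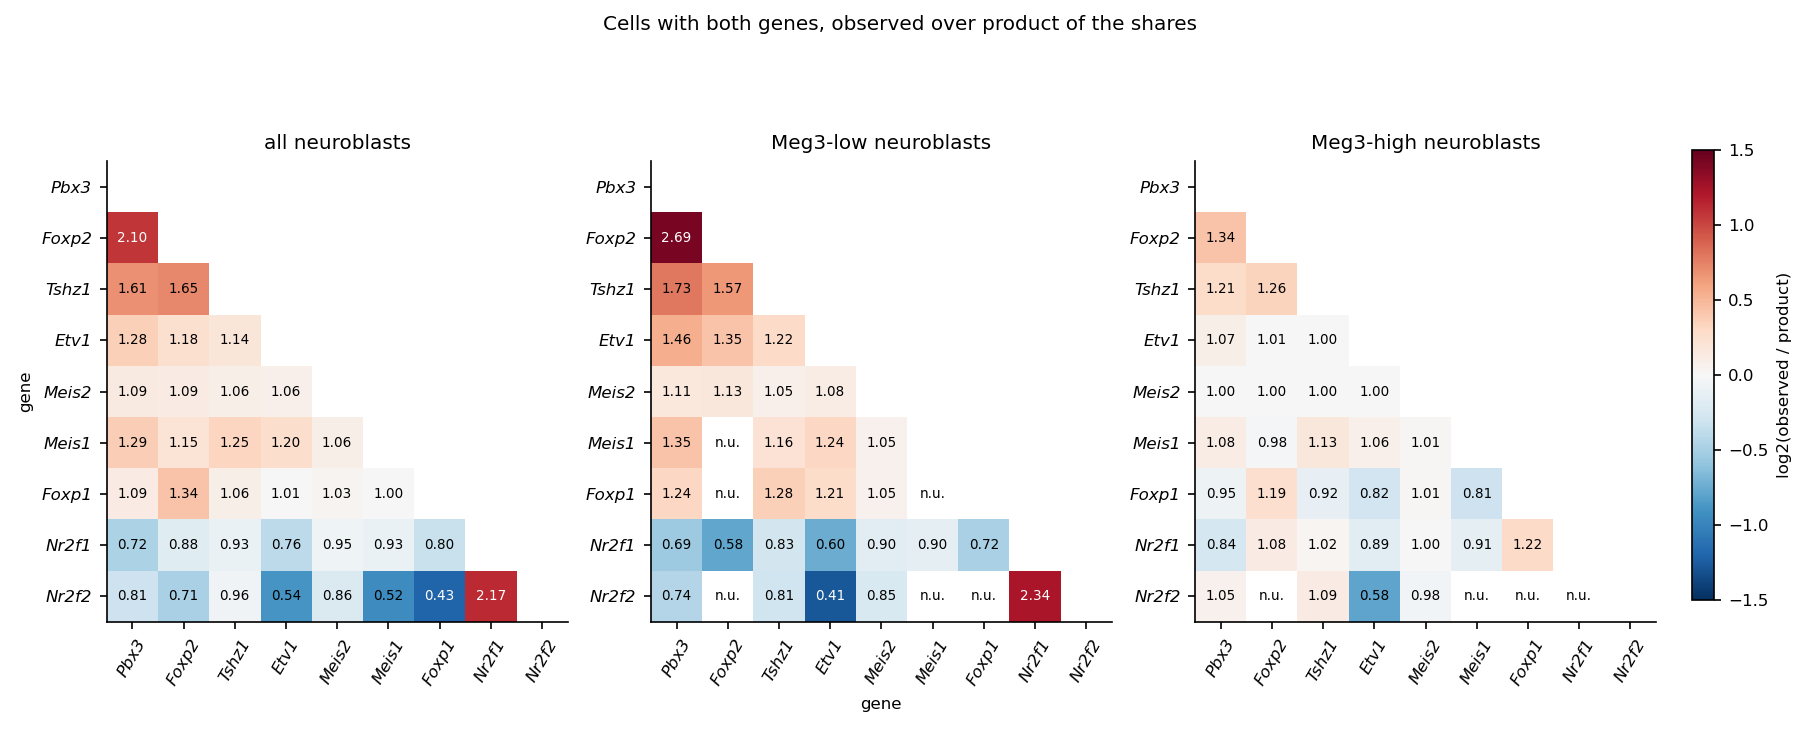
Co-detection of the 36 pairs of the 9 genes (observed cells over the product of shares, log2 colour scale) in all, Meg3-low and Meg3-high neuroblasts, with the ratio printed in each cell and n.u. for pairs where the product gave fewer than 10 cells. Pbx3, Foxp2 and Tshz1 form a block above 1.5 in all neuroblasts, as do Nr2f1 and Nr2f2, and no pair passes 1.5 in Meg3-high neuroblasts.

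Since Pbx3, Foxp2 and Tshz1 were all highest in Meg3-high cells, co-detection was read again within each Meg3 range. In Meg3-high neuroblasts the ratio of Pbx3 and Foxp2 was 1.34 (1.16 to 1.54), with Foxp2 in 40.7% of cells with Pbx3 and 15.8% of cells without it. Pbx3 and Tshz1 had 1.21 and Foxp2 and Tshz1 1.26. Nr2f1 and Nr2f2 could not be used there, with 9 cells against 5.95 by the product. Of 32 usable pairs 0 were together and 1 apart (Etv1 and Nr2f2, 0.58), beside 0.34% and 1.93% of 47052 pairs with any other gene in these cells. With Pbx3 in 58.0% of these cells, its ratios cannot exceed 1.72. In Meg3-low neuroblasts the same pairs had larger ratios, with 2.69 for Pbx3 and Foxp2 (1.88 to 3.72), 1.73 for Pbx3 and Tshz1, 1.57 for Foxp2 and Tshz1 and 2.34 for Nr2f1 and Nr2f2. There 4 of 30 usable pairs were together and 3 apart, namely Etv1 with Nr2f2 (0.41), Foxp2 with Nr2f1 (0.58) and Etv1 with Nr2f1 (0.60), beside 0.931% and 3.66% of 39299 pairs with any other gene.

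Earlier in the lineage fewer pairs could be read. In cycling neuroblasts 0 of 18 usable pairs were together and 2 were apart, Foxp1 with Nr2f1 (0.36) and Pbx3 with Nr2f1 (0.53), beside 0.678% and 2.95% of 24038 pairs with any other gene. In the cycling precursors 4 pairs were usable, and Meis2 with Etv1 (1.51) was the 1 pair together and 0 were apart, beside 0.365% and 2.98% of 6569 pairs. For the 4 pairs above, the product gave fewer than 10 cells in both classes. In cycling neuroblasts Pbx3 and Foxp2 were found together in 10 cells against 3.55 (ratio 2.82, 1.36 to 5.13) and Nr2f1 and Nr2f2 in 14 against 6.07 (2.31, 1.27 to 3.82). These counts are too small to be called by the rule used here.

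Larger combinations were counted as well. The sets with Pbx3, Foxp2 and Tshz1 and with Nr2f1 and Nr2f2 are made of pairs already found together in these cells. Their excess over the product is thus not separate support. Pbx3, Foxp2 and Tshz1 were all found in 129 neuroblasts (7.58%), against 32.1 by the product of the 3 shares, a ratio of 4.02. The ratio was 1.82 in Meg3-high neuroblasts (106 cells against 58.1) and 5.96 in Meg3-low neuroblasts (21 against 3.52). The latter product lies under the limit of 10 cells used for pairs. Nr2f1 and Nr2f2 without Pbx3 and Foxp2 were found in 45 cells against 13.9. Meis2 with none of the other 8 genes was found in 220 cells against 179. Nr2f1, Nr2f2 and Etv1 were all found in 6 cells against 10.2, and Nr2f1 or Nr2f2 without Meis2 in 66 against 52.6. Cells without a UMI of a gene include cells in which its transcript was missed.

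The number of the 9 genes found per thinned cell was 0.959 on average in qNSC-like cells, 1.47 in cycling precursors, 2.01 in cycling neuroblasts, 2.41 in Meg3-low and 3.43 in Meg3-high neuroblasts. Over all neuroblasts it was 2.69. At least 4 genes were found in 26.2% of neuroblasts, against 23.4% by the product of shares, and 0 genes in 3.23% against 1.28%. Without thinning, at least 4 genes were found in 57.8% against 59.8%. Within Meg3-high neuroblasts the thinned shares were 45.3% against 46.3% for at least 4 genes and 0% against 0.0434% for 0 genes. In the other ranges at least 4 genes were found in 18.2% of Meg3-low neuroblasts against 16.0%, in 9.78% of cycling neuroblasts against 8.65% and in 4.79% of cycling precursors against 2.98%. The variance of the number per thinned cell was 1.94 over all neuroblasts, against 1.38 by the product, and 1.73 against 1.42 in Meg3-high neuroblasts. It was also larger than by the product in Meg3-low neuroblasts (1.59 against 1.25), in cycling neuroblasts (1.4 against 1.17) and in all neuroblasts without thinning (2.24 against 1.67). An excess was found in thinned cells of other kinds as well, with 0.871 against 0.708 in endothelial-like and 0.722 against 0.658 in mOL-like cells, while qNSC-like cells had 0.675 against 0.73.

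**Figure D4:**
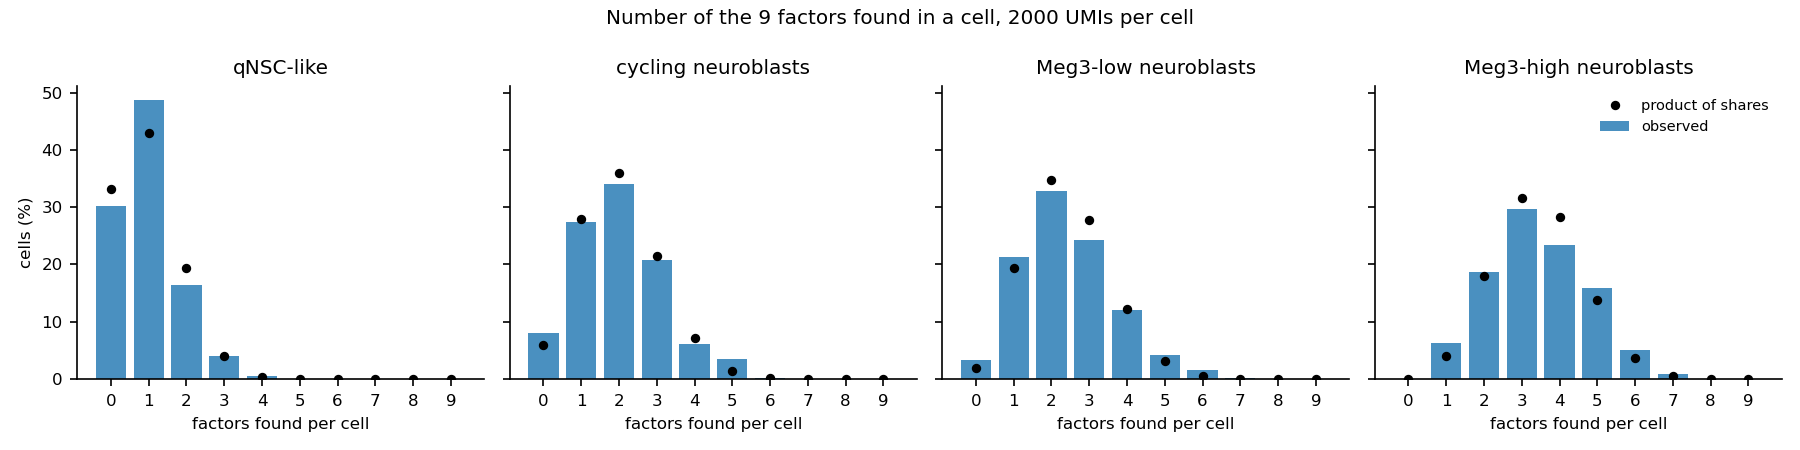
Number of the 9 genes found per cell after thinning to 2000 UMIs (percent of cells, bars) in qNSC-like cells and in cycling, Meg3-low and Meg3-high neuroblasts, with the share given by the product of the single shares as points. The mean is 0.959 in qNSC-like cells and 3.43 in Meg3-high neuroblasts.

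The genes were then paired with other listed factors and products of bulb interneurons. Of 237 usable pairs with a listed factor, 9 were together and 28 apart, and of 73 with a listed product, 5 and 9. Without the 58 cells of the Neurod1 and Eomes cluster, 8 of 222 were together and 17 apart, and 3 and 6 of 63, beside 1.08% and 3.69% of 67420 pairs with any other gene. Zic1 and Zic2 encode zinc finger factors of calretinin interneurons. Foxp2 and Zic1 were found together in 2 cells against 21.5, a ratio of 0.093 (0.0113 to 0.335), with Zic1 in 0.727% of cells with Foxp2 and 9.19% of cells without. In Meg3-high neuroblasts the count was 1 cell against 11.8. Zic1 was also apart from Nr2f1 (0.283, 9 cells against 31.8), Pbx3 (0.473) and Meis1 (0.476), but not from Etv1 (0.883). In Meg3-high neuroblasts the ratio of Pbx3 and Zic1 was 0.707, not past the limit. Pbx3 and Zic2 had a ratio of 0.329, and 0.378 in Meg3-high neuroblasts.

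Pax6, a factor of dopaminergic periglomerular and other bulb interneurons, was apart from Pbx3 (0.486) and from Foxp2 (0.526). Pax6 was found in 11.1% of neuroblasts with Pbx3 and 28.7% of those without it. In Meg3-high neuroblasts the shares were 10.9% and 32.5%, a ratio of 0.547 (0.394 to 0.737). Calb2, which encodes calretinin, was apart from Pbx3 (0.433), Tshz1 (0.448) and Foxp2 (0.224), and its ratio with Pbx3 was 0.345 in Meg3-high neuroblasts. The set of Pbx3, Foxp2 and Tshz1 was thus less often found with calretinin than the product gives.

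Prokr2 was together with all 3 genes of that set, at 2.30 with Pbx3 (106 cells against 46.1), 2.6 with Foxp2 and 1.99 with Tshz1. In Meg3-high neuroblasts its ratio with Pbx3 was 1.4, under the limit. Pbx3 was also together with Foxp4 (2.32), Tshz2 (1.85) and Vax1 (1.74), a ventral forebrain homeodomain factor. Nr2f1 was apart from Vax1, at 0.41 in all neuroblasts and 0.423 in Meg3-high neuroblasts. Nr2f2 was apart from Sp8 (0.576), a zinc finger factor of bulb interneurons, and from Synpr (0.352), which encodes a synaptic vesicle protein. Nr2f1 was together with Neurod1 (2.75) and Etv1 apart from it (0.111), and both values rest on the Neurod1 and Eomes cluster, since 3 of the 44 thinned neuroblasts with Neurod1 lay outside it. Within Meg3-high neuroblasts, 1 of 192 usable pairs with a factor was together (Pbx3 with Foxp4, 1.72) and 14 apart, and of 56 with a product 0 were together and 3 apart, beside the 0.34% and 1.93% of all pairs in these cells.

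**Figure D5:**
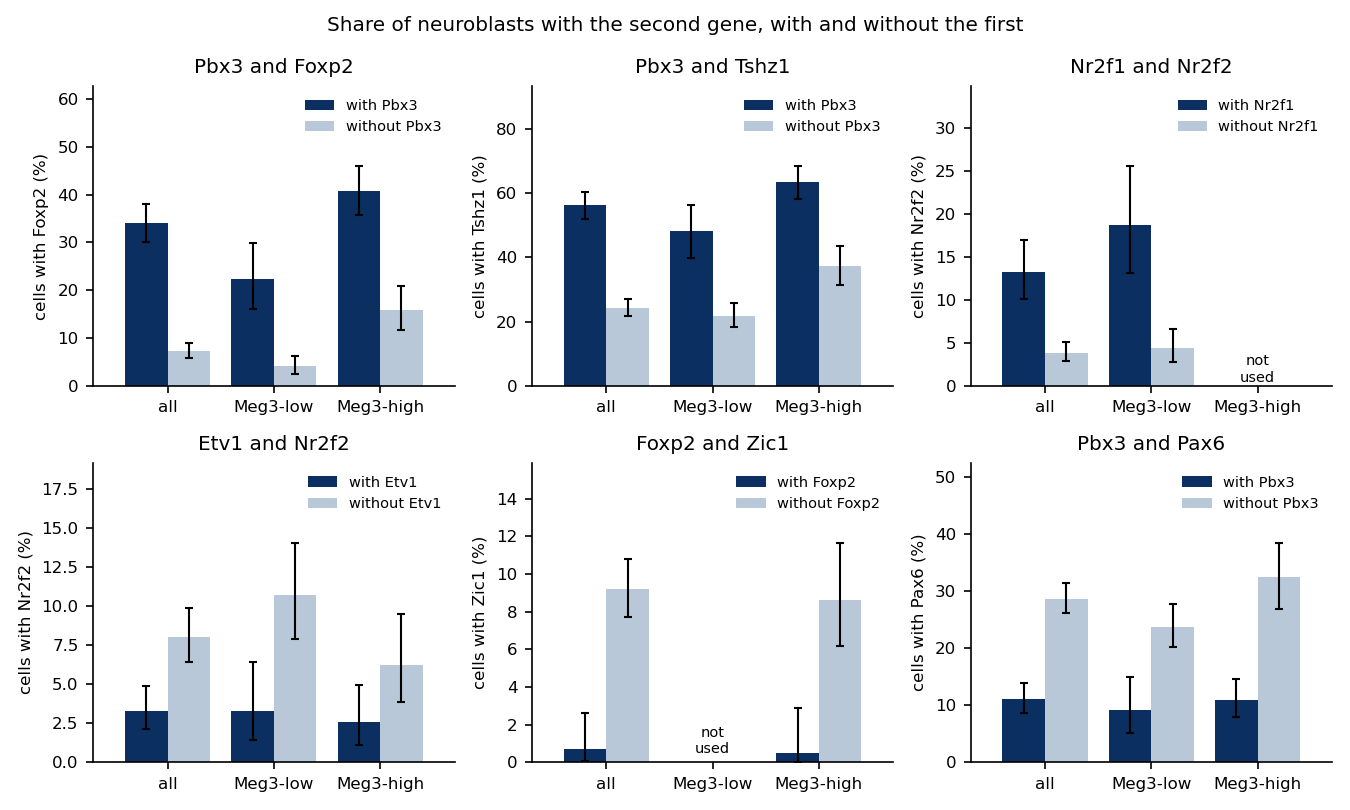
Share of thinned neuroblasts (percent) that hold the second gene among cells with and without the first, for 6 pairs in all, Meg3-low and Meg3-high neuroblasts, with exact 95% intervals and not used where the product gave fewer than 10 cells. Foxp2 is in 34% of cells with Pbx3 and 7.24% of cells without it, and Zic1 in 0.727% of cells with Foxp2 and 9.19% of cells without.

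Beyond the lists, all genes were compared by CPM between non-cycling neuroblasts with and without each factor after thinning. Genes were ranked by the end of the interval of the ratio that lies nearer to 1, and for each factor the first 5 genes with higher and the first 3 with lower CPM were taken. In cells with Pbx3 the ranking was led by C79798 (23.9, 10.6 to 66.8), Gm27032 (9.32), the phosphatase gene Dusp4 (8.57), Foxp2 (6.49) and Prokr2 (6.88), and the first genes with lower CPM were Neurod1 (0.11), the homeodomain gene Lhx2 (0.15) and E130114P18Rik (0.18). Neurod1 had 1 UMI in all without the Neurod1 and Eomes cluster, so its ratio rests on that cluster. C79798 lies within Pbx3 on the opposite strand (build mm10, chromosome 2, bases 34287771 to 34304440, plus strand), whereas Pbx3 spans bases 34171457 to 34373142 of the minus strand. Whether the counting used strand is not given in the sources used here, so reads of Pbx3 and C79798 cannot be told apart. Gm27032 is a long intergenic noncoding RNA gene on chromosome 2 at bases 180894105 to 180895220.

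In cells with Foxp2 the first 5 genes were C79798 (4.6), Pbx3 (3.33), the forebrain homeodomain gene Six3 (4.63), Gm27032 (3.44) and Prokr2 (3.31). Zic1 was at 0.03, and Eomes and Sema3c had 0 UMIs in these cells against 73 and 60 in those without Foxp2. Without the Neurod1 and Eomes cluster the latter counts were 4 and 10, too few to tell the cells apart. Cells with Tshz1 were led by Gm27032 (3.64), Prokr2 (3.39), Pbx3 (2.71), Foxp2 (2.96) and the protocadherin gene Pcdh17 (3.42), with lower CPM of Vim (0.33), Calb2 (0.33) and Tead2 (0.26). Calb2 stood at 0.17 without the Neurod1 and Eomes cluster and at 0.65 (0.39 to 1.04) in Meg3-low neuroblasts. In Meg3-high neuroblasts Tead2 stood at 0.60 (0.13 to 2.55) and Pbx3 at 1.79 (1.57 to 2.03). Gm27032 and Prokr2 were thus among the first 5 genes for all 3 factors of the set. In Meg3-high neuroblasts Prokr2 stood at 1.92 in cells with Foxp2 and 4.0 in cells with Pbx3, and Gm27032 at 5.66 in cells with Pbx3. In the same range Foxp2 stood at 3.90 in cells with Pbx3. In cells with Foxp2, C79798 stood at 2.36 in Meg3-high and 14.7 in Meg3-low neuroblasts, and Pbx3 at 2.12 and 4.86.

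Cells with Etv1 were led by other genes, the fibrillin gene Fbn2 (3.45) and the glutamate receptor gene Grik3 (2.92), followed by Dusp4 (2.55), Gm27032 (2.38) and Ptgds (2.22). In Meg3-high neuroblasts Fbn2 stood at 2.94 and Grik3 at 2.09, whereas Gm27032 (1.75) and Ptgds (1.26, 0.73 to 2.20) were under 2-fold. The first genes with lower CPM in cells with Etv1 were Neurod1 (0.03), Sema3c (0.02) and Eomes (0.04). Without the Neurod1 and Eomes cluster Neurod1 had 1 UMI in all, Sema3c 1 UMI against 9 and Eomes 0 against 4. Cells with Nr2f1 were led by Neurod1 (6.11), Nr2f2 (4.77), the semaphorin gene Sema3c (4.34), the cell death gene Hrk (3.83) and Pcp4 (3.23), with lower CPM of Zic1 (0.24), Zfhx3 (0.27) and Six3 (0.20). Without the Neurod1 and Eomes cluster Pcp4 stood at 0.28 (0.0066 to 1.85, 1 UMI against 13), Neurod1 had 0 UMIs in these cells and Sema3c had 5 UMIs against 5 (3.62, 0.83 to 15.7, and 1.24 in Meg3-high neuroblasts), whereas Nr2f2 stood at 4.85 and Hrk at 4.38. Cells with Nr2f2 were led by Nr2f1 (3.74), Hrk (5.47), Neb (4.27), Igfbp5 (2.78) and G6pdx (4.05), and Gm27032 (0.08), Nxph1 and Sall1 (both 0 UMIs) were lower. In Meg3-high neuroblasts, with 28 cells that held Nr2f2, Nr2f1 stood at 1.79 (0.93 to 3.16), Neb at 2.39 (0.74 to 6.01) and Igfbp5 at 3.54. G6pdx stood at 9.23 (2.91 to 25.6) there and at 2.36 (0.88 to 5.41) in Meg3-low neuroblasts.

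Cells with Meis2 had high ratios for Meg3 (5.21), Rian (7.78) and Pbx3 (5.23), with Gm22813 and Gm27032 at 0 UMIs in cells without Meis2, and low ones for Neurod1 (0.02), Lhx2 (0.08) and Sema3c (0.07). Without the Neurod1 and Eomes cluster Sema3c stood at 0.17 (0.03 to 1.63), Lhx2 at 0.16 and Neurod1 had 1 UMI in all. Meg3 then stood at 3.25, Rian at 4.84 and Pbx3 at 3.43. In Meg3-high neuroblasts, where 7 cells lacked Meis2, Pbx3 stood at 0.74 (0.46 to 1.31) and Meg3 at 1.29 between cells with and without Meis2. In Meg3-low neuroblasts, where 75 cells lacked Meis2 and held 2 UMIs of Pbx3, Pbx3 stood at 21.0 (5.76 to 174). On the higher side Foxp1 and Meis1 had the flattest rankings. The first 5 ratios were between 2.27 and 2.87 for Foxp1 (Ankrd26, Tbc1d24, Sik1, Bnip3 and Pip4k2b). They were between 2.21 and 2.61 for Meis1 (Cxadr, Dusp4, Ankrd16, Rap2b and Arhgap39). Lower in cells with Foxp1 were Cecr2 (0.14), Ptgds (0.32) and Armcx3 (0.16). Cells with Meis1 had 0 UMIs of Neurod1 and Pcp4, against 88 and 69, and lower Cnr1 (0.18). Without the Neurod1 and Eomes cluster the counts of 88 and 69 were 1 and 14. All 72 ratios were past 2-fold by the way they were chosen. Without the Neurod1 and Eomes cluster 67 were past it, in Meg3-low neuroblasts 69 and in Meg3-high neuroblasts 52. Of these, 60, 62 and 41 also had an interval that did not include 1. The cells of these settings are parts of those in which the genes were chosen, so the counts do not test the choice.

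The genes whose levels were most like those of each factor were found over 14 classes of brain cells, by Pearson's r of log2(CPM + 10) among 8850 genes. The classes share 1 library, so these values are a description. The first gene was Sln for Pbx3 (0.911), Cacnb3 for Foxp2 (0.887), Slco5a1 for Tshz1 (0.943), Zfp157 for Etv1 (0.954), Akap8 for Meis2 (0.95) and Smarcc2 for Meis1 (0.923). All of these were highest in Meg3-high neuroblasts. Pbx3 itself was the second gene for Foxp2 (0.881), and no other pair of the 9 genes stood among the first 3. For Foxp1 the first gene was Rbms2 (0.938), highest in endothelial-like cells. For Nr2f2 it was the laminin gene Lamb1 (0.925), and for Nr2f1 the receptor gene Bmpr1a (0.902), both highest in mural-like cells. The second gene for Nr2f1, A830082K12Rik (0.901), overlaps it on the opposite strand, so their reads too cannot be told apart.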

How the data were processed

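Per the labels, the authors demultiplexed the reads with bcl2fastq 2.19.1.403, extracted barcodes with UMI-tools 1.0.0 (the study's methods name another release), aligned with STAR 2.7.1a to mm10 and assigned reads to genes with featureCounts 1.6.4. The deposited values are UMI counts per gene and cell barcode, as the authors left them, with no normalization. The annotation, the strand setting and the barcode rule are not given in the sources used here.

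Barcodes with more than 200 and fewer than 4000 genes and under 40% mitochondrial counts were kept, as in the methods. This left 4151 of 4640 brain cells (median 4209 UMIs) and 5608 of 5981 lung cells (median 5585 UMIs). The factors, the gene lists and the Dcx limit were chosen with earlier results of these data known. Brain cells were clustered with Seurat 5.3.0 in R 4.3.3 (2000 variable genes, resolution 0.8, 19 clusters). A cluster took the name of the marker list with the highest score, written with "-like". Doublets were kept, and Scrublet in scanpy 1.11.5 called 44 cells (1.06%). Cells were thinned to 2000 UMIs without replacement. Shares have exact Clopper-Pearson intervals, CPM exact Poisson intervals and CPM ratios exact conditional binomial intervals, all at 95% and for counting error only. Genes were compared where either class reached 10 CPM, and for cells with and without a factor at 50 UMIs or more. The scripts were tested on simulated data. Named genes were the 9 factors, the first 3 genes by correlation, the first 5 and 3 genes of each ranking, and listed factors and products past 2-fold, with the leading genes of clusters named as seen. Gene positions are from an annotation of GRCm38, the assembly that mm10 names. Alternatives on the Dcx limit, filter, doublets, resolution, thinning, cycle genes and scaling, and others added after seeing the data, are given at the end.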

Additional observations from a re-analysis of the deposited data

How the results depend on the processing

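3 ratios of named genes reversed: Pcp4 in cells with Nr2f1 (3.23) stood at 0.28 without the Neurod1 and Eomes cluster and at 0.46 in Meg3-high neuroblasts, and Pbx3 in cells with Meis2 (5.23) at 0.74 in Meg3-high neuroblasts. All 3 intervals include 1, with 1 UMI of Pcp4 in cells with Nr2f1 in both settings and 7 cells without Meis2. In Meg3-low neuroblasts Pbx3 in cells with Meis2 stood at 21.0 (5.76 to 174). Ratios on 3 or fewer UMIs in all were not read, among them those of Neurod1 (at most 1 UMI in either setting). The ratio of Lhx2 in cells with Meis2 (0.08) also turned in Meg3-high neuroblasts, with 7 UMIs in cells with Meis2 and 0 without. It had no finite value there and is not among the 3. The median share of neuroblasts with a factor was 23.9%, and 12.96% when cells were thinned to 1000 UMIs, 30.3% at 3000 UMIs and 39.2% without thinning, so shares follow depth. Pairs together numbered 4, and 2 at 3000 UMIs, 2 without thinning and 0 within Meg3-high neuroblasts. Pairs apart numbered 3, and 6 at 1000 UMIs and 1 within Meg3-high neuroblasts. The cause was not tested. The 6 genes higher in non-cycling neuroblasts than in qNSC-like cells and the 3 higher in Meg3-high than in Meg3-low neuroblasts were also 6 and 3 in number under other Dcx limits, filters, cluster resolution, cycle limits and scaling. Among the values for single genes and pairs, 863 stayed within the interval of the value reported and 113 others moved beyond it. Without a filter on low values, 33.9% and 29.0% of all genes were past 2-fold higher and lower against qNSC-like cells, and 12.5% and 18.0% between the Meg3 ranges. Leaving out the astrocyte-like and qNSC-like clusters, the Neurod1 and Eomes cluster, a shallow cluster, or all but clusters 0 and 1 was chosen after seeing the data. No paired analysis was possible because each tissue has 1 library. No value here has a replicate check.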
